A study of Mus musculus with 16 samples.

Results

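Bone marrow-derived macrophages (BMDMs) matured with GM-CSF on tissue culture-treated dishes (GM-TC) were compared at steady state with BMDMs matured with M-CSF on the same kind of dish (M-TC). The comparison used 4 of the 16 RNA-seq libraries of the study, 2 per group, chosen by the growth factor, dish and treatment in their labels and not by any measured value. All cells came from bone marrow of C57BL/6J mice of 8 weeks and were cultured for 7 days without a change of medium. GM-TC cells received 20 ng/ml GM-CSF and were seeded at 1000000 cells per ml, and M-TC cells received 50 ng/ml M-CSF and were seeded at 500000 cells per ml, so that the factor, its dose and the seeding density cannot be told apart. Cells of both groups received vehicle instead of LPS. 2 further pairs of groups were used only to see where the difference held, namely cells on dishes without tissue culture treatment (GM-noTC and M-noTC) and cells on treated dishes challenged with LPS for 3 h (GM-TC-LPS and M-TC-LPS). The libraries are from whole cultures, so fewer cells of a type and less RNA per cell cannot be told apart.

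GM-CSF signals through a receptor made of a specific alpha chain and a beta chain shared with the receptors for IL-3 and IL-5, and the beta chain activates JAK2 and STAT5. M-CSF signals through a receptor tyrosine kinase encoded by Csf1r, on which most tissue macrophages depend for survival. GM-CSF is needed for alveolar macrophages, in which it maintains PPARγ, and marrow cultures grown with it are known to contain cells with features of macrophages and of dendritic cells.

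The GM-TC libraries held 17527802 and 22400457 counts and the M-TC libraries 18053977 and 19208104, and the scaling factors of the trimmed mean of M-values (TMM) were 1.13 and 1.11 for GM-TC and 1.39 for both M-TC libraries. The 10 most abundant genes took 19.2% and 20.5% of the counts in GM-TC and 12.4% in both M-TC libraries, and scaling changes with this share. Levels are given as TMM-scaled CPM (counts per 1000000 counts) in replicate 1 and replicate 2 of each group. They are not divided by gene length, so they compare groups, and statements that set levels of different genes side by side are rough. The 10 markers of macrophages that were examined were detected in all 4 libraries, among them Csf1r, Adgre1, Itgam, Cd68 and Lyz2. Replicates differed by more than counting noise, with a chi-square per degree of freedom of 12.9 for the GM-TC pair and 2.19 for the M-TC pair. All 4 libraries also held RNA of heart muscle genes such as Myh6, which macrophages are not known to express. Myh6 was the highest of the heart markers examined singly, with 16.8 and 8.30 CPM in GM-TC and 30.5 and 16.7 CPM in M-TC without TMM scaling. The sum over 36 listed genes was 410 and 345 CPM in GM-TC and 461 and 404 CPM in M-TC. Most of it came from members not shown to be specific to heart. In the GM-noTC and M-noTC libraries, 15 and 19 genes that were nearly absent on TC dishes and abundant in the other 10 libraries exceeded their level on TC dishes by a median of 0.675% and 0.600% of their mean in those libraries, and the source of these reads was not tested.

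The 2 directions of change were unequal in number. 1657 of 12514 tested genes were upregulated in GM-TC cells over M-TC cells (13.2%) and 1069 were downregulated (8.54%), at a Benjamini-Hochberg (BH) adjusted p under 0.05 in edgeR's quasi-likelihood test and a fold change above 2. These genes are called DEGs here, and both directions together held 21.8% of the genes tested. Without the limit on fold change 61.5% of the genes passed, 4078 higher in GM-TC (32.6%) and 3619 higher in M-TC (28.9%). At the study's threshold, taken as an unadjusted p under 0.05 with the same fold change, 1689 genes (13.5%) and 1093 genes (8.73%) passed. The libraries of the groups did not overlap for 9724 genes (77.7%), and 0.333 is the smallest two-sided p that an exact permutation of 4 libraries in groups of 2 allows. DEGs higher in GM-TC also reached larger fitted fold changes. Of them 1015 exceeded 4-fold, 465 exceeded 16-fold and 220 exceeded 64-fold, comparing with 390, 88 and 28 of those higher in M-TC. 140 DEGs higher in GM-TC had no count in either M-TC library, and 22 DEGs higher in M-TC had none in GM-TC. The fitted fold changes of such genes, and of genes with few counts in a group, depend on the prior count. The numbers past 16-fold and 64-fold, and their inequality, may partly rest on it. The share of DEGs higher in GM-TC was 60.8% with TMM factors and 44.3% with scaling by library size only, which moved the median log2 fold change of all genes from 0.018 to -0.29. Each of 352 DEGs held a value that was not a whole count in at least 1 of the 4 libraries, so some of its reads were shared with other genes, among them Csf1r, Csf3r, Ccnd1, Cd180, Ctsd, Ctsl, Itga4, Itgam, Itgax, Ly6c2, Mmp19, Pltp, Selenop, Sgsh, Siglec1, Slc7a11 and Stab1, whose levels are to that extent uncertain.

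**Figure D1:**
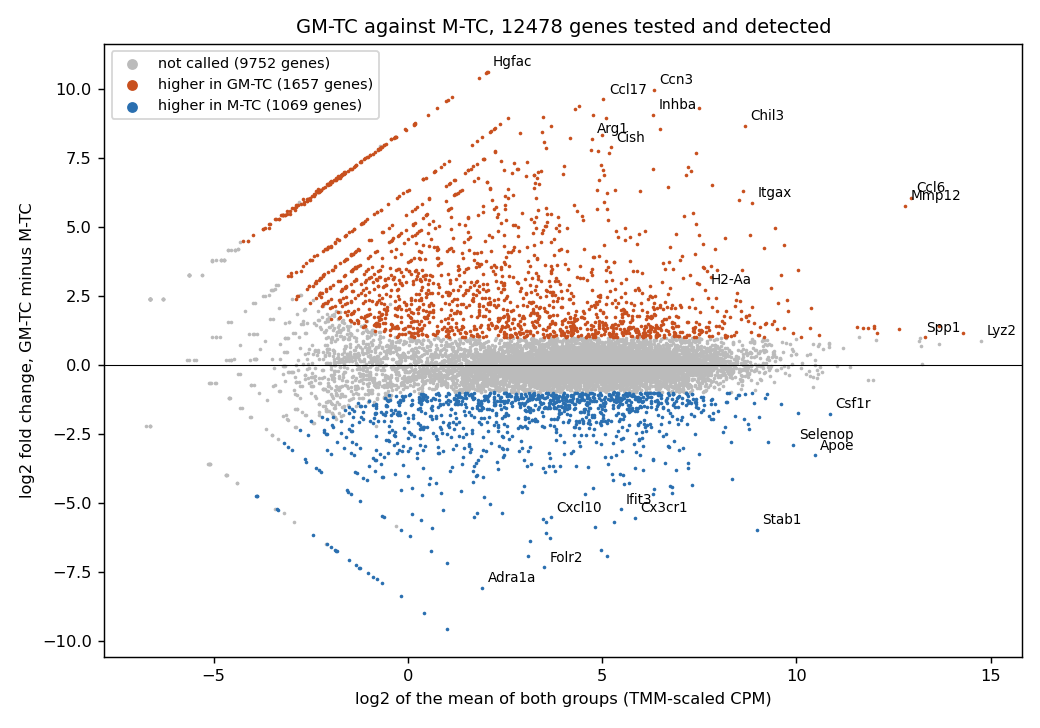
Each point is a gene, with the log2 of its mean CPM over the 4 libraries on the x axis and its log2 fold change of GM-TC over M-TC on the y axis. Orange points are the 1657 DEGs higher in GM-TC, blue points the 1069 higher in M-TC and grey points the other genes, and the orange points reach further from 0 than the blue ones. Fitted values of genes with few or no counts in a group depend on the prior count.

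The largest fold changes in GM-TC belonged to secreted proteins, surface receptors and a transcription factor. Hgfac, a serine protease that activates hepatocyte growth factor, was at 7.52 and 8.98 CPM in GM-TC and 0 in both M-TC libraries (at least 71.2-fold higher in GM-TC, adjusted p = 2.71e-13). Foxq1, a forkhead transcription factor, was at 8.03 and 7.97 CPM in GM-TC and 0 in both M-TC libraries (at least 69-fold higher in GM-TC, adjusted p = 3.76e-12). Adra2a, an adrenergic receptor, stood at 6.31 and 7.93 CPM in GM-TC and 0 in both M-TC libraries (at least 61.4-fold higher in GM-TC, adjusted p = 1.05e-11). Among the 4 libraries all 3 genes were thus counted in GM-TC alone, and their fold changes are lower bounds that set a floor of 3 counts in each M-TC library. Ccn3, a matricellular protein, had 155 and 168 CPM in GM-TC and 0.16 and 0.15 CPM in M-TC (log2 fold change 9.98 ± 0.17, adjusted p = 4.70e-22). Rbp4, the plasma carrier of retinol, had 327 and 390.2 CPM in GM-TC and 0.479 and 0.636 CPM in M-TC (log2 fold change 9.31 ± 0.17, adjusted p = 1.89e-21). Rnase2a, a ribonuclease of the eosinophil-associated family, had 35.1 and 44 CPM in GM-TC and 0.0798 and 0.0374 CPM in M-TC (692-fold higher in GM-TC, with a 95% counting interval of 236 to 3357, adjusted p = 3.91e-19). The other 2 genes with the largest fold changes, Ccl17 and Plet1, are given with their groups.

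On the M-TC side the largest fold changes belonged to receptors, a transporter and nuclear proteins. Adra1a, also an adrenergic receptor, was at 0.0505 and 0 CPM in GM-TC and 7.1 and 7.93 CPM in M-TC (336-fold higher in M-TC, with a 95% counting interval of 60.0 to 13310, adjusted p = 1.92e-12), so 2 adrenergic receptors stood at opposite ends of the comparison. Folr2, the folate receptor of many tissue macrophages, had 0 and 0.242 CPM in GM-TC and 25 and 20.2 CPM in M-TC (log2 fold change -7.34 ± 0.28, adjusted p = 6.77e-16), with all its GM-TC counts in replicate 2. Abcb4, a phospholipid transporter, had 0.404 and 0.684 CPM in GM-TC and 66.6 and 71.3 CPM in M-TC (log2 fold change -6.93 ± 0.14, adjusted p = 5.69e-21). Each of these 3 genes had under 1 CPM in both GM-TC libraries. Clec4a1, a C-type lectin of the DCIR family, had 0.404 and 0.725 CPM in GM-TC and 62.6 and 60.9 CPM in M-TC (log2 fold change -6.72 ± 0.16, adjusted p = 8.43e-20). Tox2, a chromatin protein of the HMG-box family, had 0.101 and 0.161 CPM in GM-TC and 18.2 and 15.7 CPM in M-TC (log2 fold change -6.92 ± 0.26, adjusted p = 5.39e-16). Hmga2, a chromatin protein typical of proliferating and fetal cells, had 0.404 and 0.242 CPM in GM-TC and 25.1 and 24.9 CPM in M-TC (log2 fold change -6.29 ± 0.18, adjusted p = 2.28e-18). Col18a1, which encodes a basement membrane collagen, had 0.202 and 0.443 CPM in GM-TC and 23.9 and 22.5 CPM in M-TC (log2 fold change -6.09 ± 0.19, adjusted p = 2.40e-17). Ifit3b completed the genes with the largest fold changes, at 0.202 and 0.201 against 17.4 and 17.3 CPM, but it shares reads with its copy Ifit3 and its level is uncertain.

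Measured by the difference in CPM, GM-TC cells were set apart by a chemokine, an elastase, mitochondrial transcripts and lysosomal proteins. Ccl6, a CC chemokine, reached 14550 and 16600 CPM in GM-TC and 224 and 241 CPM in M-TC (log2 fold change 6.06 ± 0.074, adjusted p = 2.53e-24). Mmp12, the macrophage elastase, reached 13480 and 14520 CPM in GM-TC and 258 and 257 CPM in M-TC (log2 fold change 5.77 ± 0.068, adjusted p = 2.05e-24). mt-Co1, a mitochondrially encoded subunit of cytochrome c oxidase, had 26830 and 28170 CPM in GM-TC and 12480 and 12010 CPM in M-TC (log2 fold change 1.17 ± 0.045, adjusted p = 6.77e-16). In these 3 genes every GM-TC library lay above both M-TC libraries, and the first 2 exceeded 16-fold. mt-Co2, another subunit of that enzyme, had 8597 and 9513 against 3779 and 3620 CPM (log2 fold change 1.29). The lysosomal genes Ctsd and Psap, which encode cathepsin D and prosaposin, differed less. Ctsd had 18450 and 19540 CPM in GM-TC and 7046 and 7186 CPM in M-TC (log2 fold change 1.42 ± 0.045, adjusted p = 2.40e-17), with some shared reads. Psap had 13570 and 13810 CPM in GM-TC and 6661 and 6807 CPM in M-TC (log2 fold change 1.02 ± 0.043, adjusted p = 3.91e-15). The largest differences on the M-TC side were those of Apoe, Csf1r, Selenop, Serinc3, Stab1 and Rnf213. Selenop, the selenium transport protein, had 228 and 231 CPM in GM-TC and 1689 and 1732 CPM in M-TC (log2 fold change -2.90 ± 0.052, adjusted p = 1.29e-21). Serinc3, a membrane protein that restricts retroviruses, had 474 and 496 CPM in GM-TC and 1623 and 1594 CPM in M-TC (log2 fold change -1.73 ± 0.048, adjusted p = 1.90e-18). Rnf213, a large ubiquitin ligase that responds to interferon, had 192 and 124 CPM in GM-TC and 1066 and 1105 CPM in M-TC (log2 fold change -2.79 ± 0.11, adjusted p = 1.56e-15). Replicates of GM-TC differed more in Rnf213 than those of M-TC, but the groups stayed apart. Psap fell under the fold limit without M-TC replicate 1 (0.99) and, like both mitochondrial genes, with library size only (0.71 for Psap, 0.85 for mt-Co1 and 0.98 for mt-Co2).

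**Figure D2:**
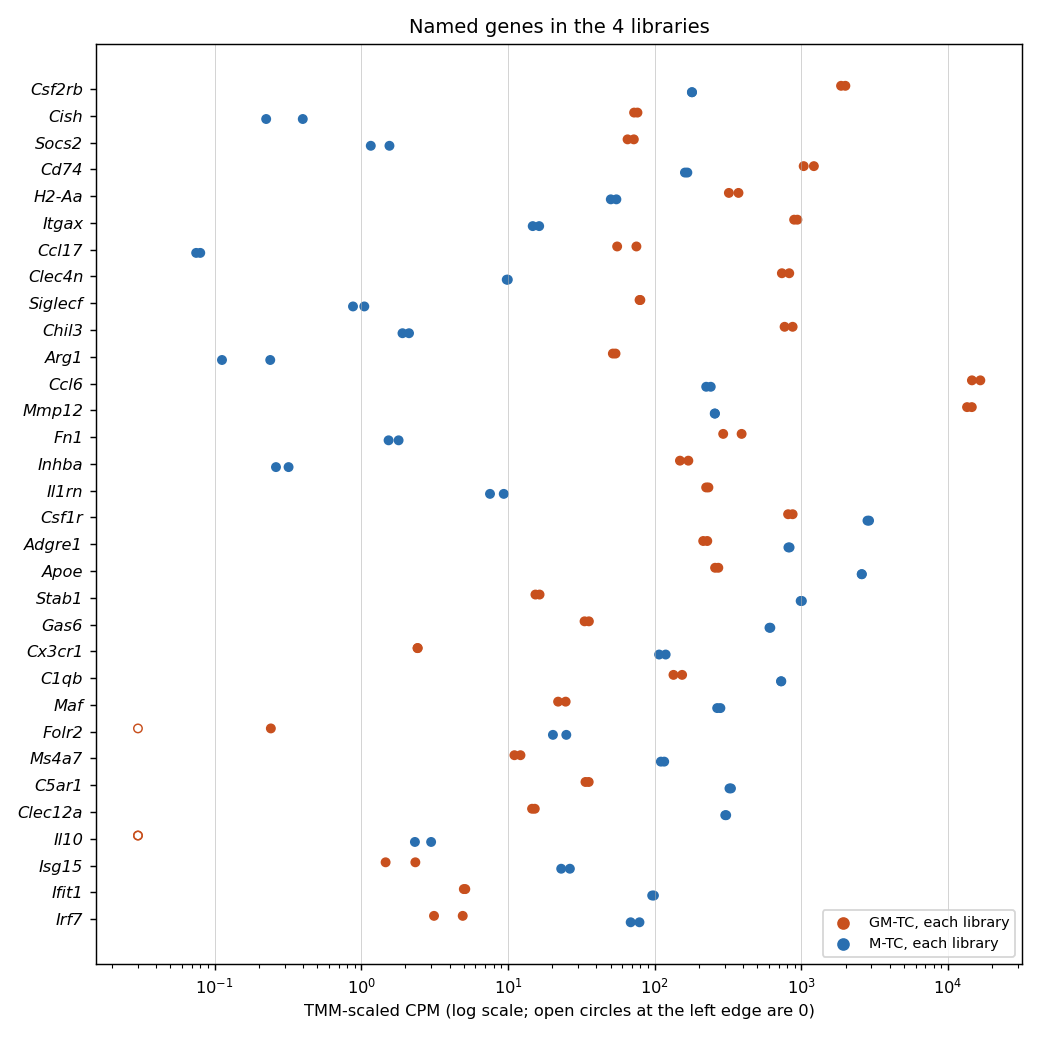
TMM-scaled CPM of 32 genes in the 2 GM-TC libraries (orange) and the 2 M-TC libraries (blue) on a log axis, 1 row per gene, with open circles at the left edge for a value of 0. The replicates lie close together in most rows and the 2 colours are apart by up to several orders of magnitude.

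The genes were then described by lists of function, 40 of which are plotted by gene, and by lists of cell type markers. Most members were DEGs higher in GM-TC in the lists of MHC class II presentation, dendritic cells, alternative activation, STAT5 targets, coagulation, PPARγ and alveolar macrophages, purinergic receptors, C-type lectins and matrix proteases. Most members were DEGs higher in M-TC in the lists of interferon stimulated genes (ISGs), the MS4A family, mitosis and resident macrophages. Counts of DEGs and medians of lists are descriptions to be read beside the 13.2% and 8.54% of all tested genes. Counts that passed the test without the fold limit are to be read beside 32.6% higher in GM-TC and 28.9% higher in M-TC.

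**Figure D3:**
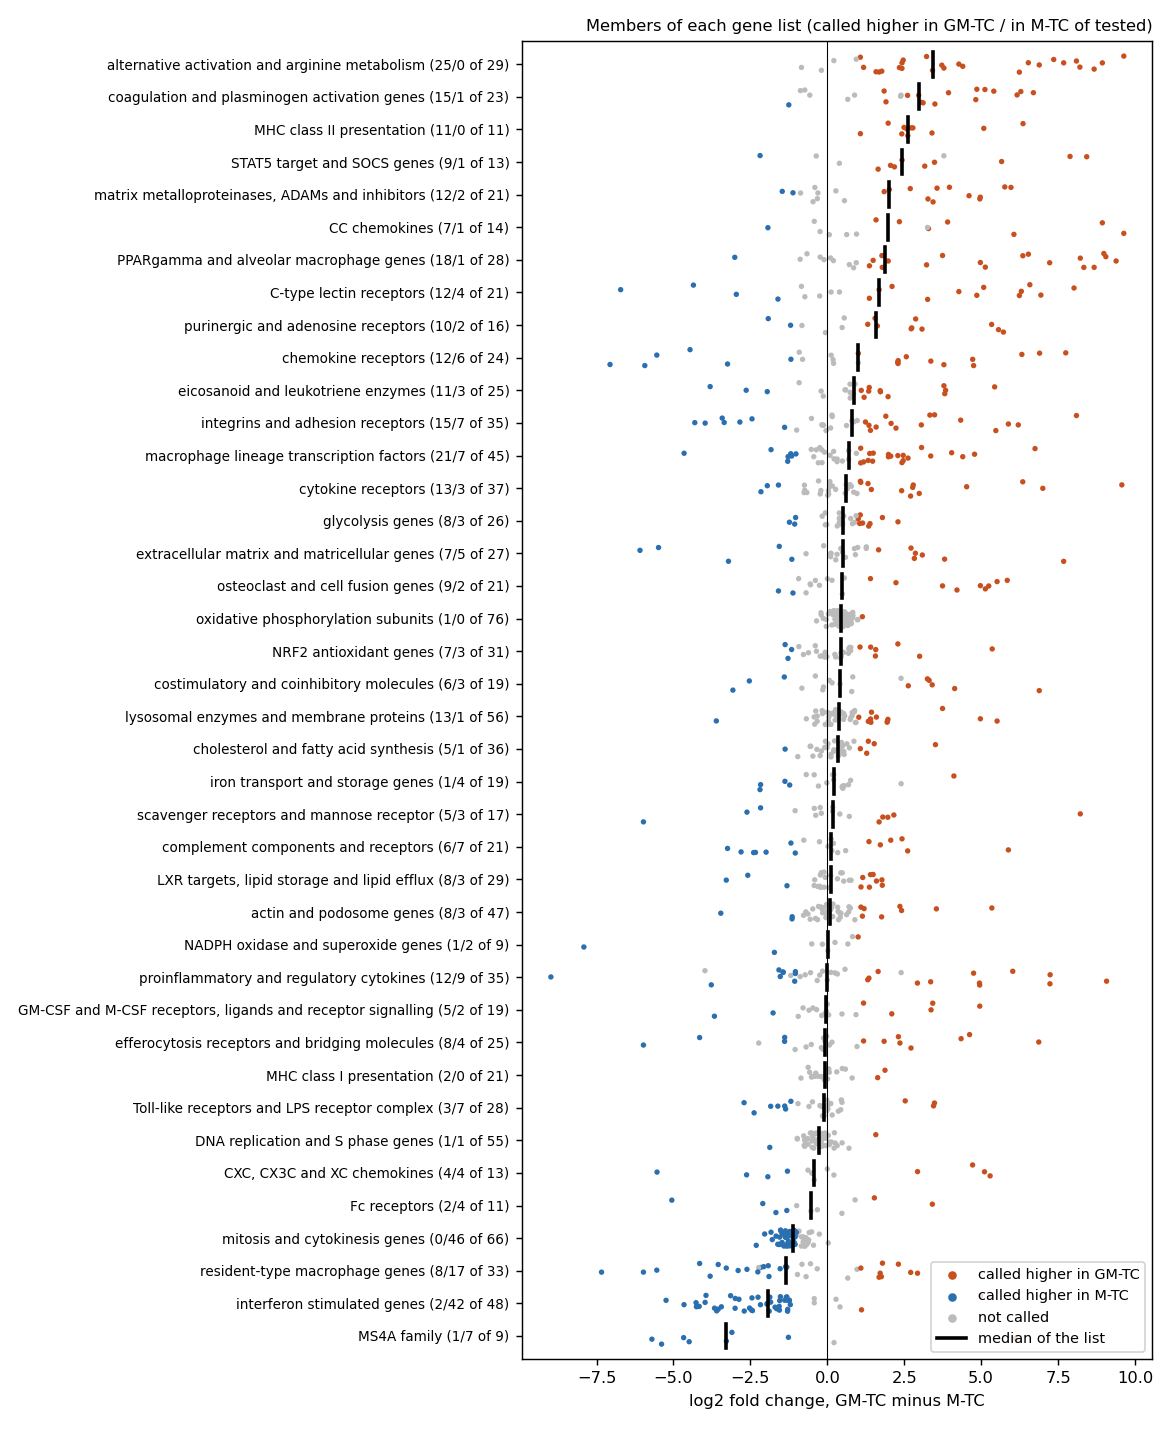
Log2 fold change of GM-TC over M-TC for each tested member of 40 function lists, 1 list per row, with DEGs higher in GM-TC in orange, DEGs higher in M-TC in blue, other members in grey and the median of the list as a black bar. The bars of the MS4A family, ISGs and resident-type genes lie furthest to the left and those of alternative activation, coagulation and MHC class II furthest to the right, and the fitted values of genes with few or no counts in a group depend on the prior count.

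Each growth factor's receptor was higher in the cells matured with that factor. Csf1r, the M-CSF receptor, had 872 and 812 CPM in GM-TC and 2894 and 2823 CPM in M-TC (log2 fold change -1.76 ± 0.053, adjusted p = 7.26e-18). Csf2ra, the specific chain of the GM-CSF receptor, had 149 and 171 CPM in GM-TC and 73 and 68.5 CPM in M-TC (log2 fold change 1.18 ± 0.071, adjusted p = 2.21e-12). Csf2rb, the shared signalling chain, had 1995 and 1865 CPM in GM-TC and 179.8 and 179 CPM in M-TC (log2 fold change 3.43 ± 0.060, adjusted p = 8.10e-22). The last of these was the most changed of the receptor chains, but it shares reads with its near copy Csf2rb2, the beta chain of IL-3 alone, which had 779 and 720.5 against 181 and 171 CPM (log2 fold change 2.09). Csf1, the gene of M-CSF itself, was higher in GM-TC, with 67.5 and 66.9 CPM in GM-TC and 6.58 and 6.4 CPM in M-TC (log2 fold change 3.37 ± 0.079, adjusted p = 1.16e-19). Csf2, which encodes GM-CSF, was close to the detection floor, with 0.252 and 0.0805 CPM in GM-TC and 0 in both M-TC libraries (at least 1.44-fold higher in GM-TC, adjusted p = 0.00954). Csf2 did not pass without GM-TC replicate 1 or M-TC replicate 2, and Csf2ra fell under the fold limit with library size only (0.86). Csf3r, the receptor for G-CSF, was higher in M-TC, with 3.03 and 2.78 CPM in GM-TC and 37.2 and 36.5 CPM in M-TC (log2 fold change -3.67 ± 0.13, adjusted p = 1.14e-16). Of 19 tested genes of receptors, ligands and signalling, 5 were DEGs higher in GM-TC and 2 higher in M-TC.

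Targets of STAT5 and suppressors of cytokine signalling were mostly higher in GM-TC, with 9 of 13 genes called in that direction, 1 in the other and the log2 fold changes had a median of 2.43. Cish, an inhibitor induced by STAT5, had 72.4 and 76.3 CPM in GM-TC and 0.399 and 0.225 CPM in M-TC (log2 fold change 7.89 ± 0.15, adjusted p = 1.86e-21). Socs2, a suppressor from the same family, had 65.3 and 72.1 CPM in GM-TC and 1.55 and 1.16 CPM in M-TC (log2 fold change 5.66 ± 0.14, adjusted p = 2.58e-19). Il2ra, the alpha chain of the IL-2 receptor, had 22.8 and 20.9 CPM in GM-TC and 0.0399 and 0.0748 CPM in M-TC (375-fold higher in GM-TC, with a 95% counting interval of 128 to 1821, adjusted p = 2.82e-17). All 3 were near or below 1 CPM in M-TC and over 20 CPM in both GM-TC libraries. Pim1, a kinase that promotes survival, was present in both, with 176 and 175 CPM in GM-TC and 42.5 and 42 CPM in M-TC (log2 fold change 2.05 ± 0.058, adjusted p = 2.51e-18). Ccnd1, which encodes cyclin D1, was the exception and was higher in M-TC, with 11.4 and 11.1 CPM in GM-TC and 51.1 and 51.1 CPM in M-TC (log2 fold change -2.19 ± 0.11, adjusted p = 4.45e-14).

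The genes of MHC class II presentation, which display peptides to CD4+ T cells, were all higher in GM-TC. All 11 tested members were DEGs in that direction, and log2 fold changes had a median of 2.62, or 2.58 with H2-Eb2 at its lower bound. H2-Aa, a class II alpha chain, had 320.5 and 373 CPM in GM-TC and 50.2 and 54.8 CPM in M-TC (log2 fold change 2.72 ± 0.075, adjusted p = 1.70e-18). Cd74, the invariant chain, had 1037 and 1217 CPM in GM-TC and 161 and 167 CPM in M-TC (log2 fold change 2.78 ± 0.074, adjusted p = 9.04e-19). H2-DMa, part of the peptide exchange factor, had 101 and 118 CPM in GM-TC and 9.93 and 10.8 CPM in M-TC (log2 fold change 3.40 ± 0.092, adjusted p = 1.40e-18). The class II chains H2-Ab1 and H2-Eb1 had log2 fold changes of 2.58 and 2.49. Ciita, the transactivator of these genes, differed least, with 26.2 and 23.5 CPM in GM-TC and 11.1 and 12.5 CPM in M-TC (log2 fold change 1.07 ± 0.10, adjusted p = 4.43e-09), and it fell under the fold limit without GM-TC replicate 1 or M-TC replicate 1 (0.98 in both cases) and with library size only (0.76). In class I presentation 2 of 21 genes were called higher in GM-TC and 0 higher in M-TC, comparing with 13.2% and 8.54% of all genes. Without the fold limit 6 and 9 passed the test, comparing with 32.6% and 28.9% of all genes. B2m, the light chain of class I, had 2168 and 2500 CPM in GM-TC and 1352 and 1316 CPM in M-TC (log2 fold change 0.81 ± 0.061, adjusted p = 1.23e-10), a difference under 2-fold.

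Costimulatory molecules did not follow a common direction, since 6 of 19 were DEGs higher in GM-TC and 3 higher in M-TC. Cd80, a ligand of CD28, had 22 and 23.9 CPM in GM-TC and 3.79 and 3.63 CPM in M-TC (log2 fold change 2.63 ± 0.11, adjusted p = 1.58e-15). Cd86, the related ligand, had 12.4 and 11.9 CPM in GM-TC and 7.38 and 6.66 CPM in M-TC (log2 fold change 0.79 ± 0.12, adjusted p = 4.66e-06), which passed the test but not the fold limit. Cd40, the receptor for T cell help, was lower in GM-TC, with 0.707 and 0.886 CPM in GM-TC and 7.74 and 5.91 CPM in M-TC (log2 fold change -3.07 ± 0.20, adjusted p = 9.65e-12). Within this list the ligands of the inhibitory receptor PD-1 were both higher in GM-TC. Cd274, which encodes PD-L1, had 283 and 274 CPM in GM-TC and 28.5 and 29.9 CPM in M-TC (log2 fold change 3.25 ± 0.056, adjusted p = 5.15e-22). Pdcd1lg2, which encodes PD-L2, had 18 and 19.7 CPM in GM-TC and 0.239 and 0.0748 CPM in M-TC (log2 fold change 6.89 ± 0.27, adjusted p = 8.15e-16). Cd83, a maturation marker of dendritic cells, was instead higher in M-TC, with 6.11 and 7.89 CPM in GM-TC and 41.7 and 40.4 CPM in M-TC (log2 fold change -2.54 ± 0.099, adjusted p = 1.04e-15).

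Genes used to recognise dendritic cells were higher in GM-TC in 21 of 26 cases and lower in 2, and log2 fold changes had a median of 3.90. Itgax, which encodes CD11c, had 939.5 and 893 CPM in GM-TC and 16.3 and 14.7 CPM in M-TC (log2 fold change 5.88 ± 0.077, adjusted p = 6.60e-24), with some shared reads. Ccl17, a chemokine for T cells, had 55.5 and 75 CPM in GM-TC and 0.0798 and 0.0748 CPM in M-TC (log2 fold change 9.63 ± 0.29, adjusted p = 1.02e-17). Ccl22, its neighbour gene with the same receptor, had 64.2 and 73.2 CPM in GM-TC and 0.16 and 0.112 CPM in M-TC (log2 fold change 8.94 ± 0.19, adjusted p = 2.09e-20). These 3 genes were among the most changed of the list and their groups were far apart. Clec9a, a receptor for dead cells on cross-presenting dendritic cells, had 31.8 and 31.2 CPM in GM-TC and 0.16 and 0.337 CPM in M-TC (log2 fold change 6.94 ± 0.18, adjusted p = 6.55e-19). Cd209a, the mouse relative of DC-SIGN, had 2.58 and 3.54 CPM in GM-TC and 0.0798 and 0.225 CPM in M-TC (log2 fold change 4.28 ± 0.44, adjusted p = 1.69e-08). Irf4, a transcription factor of a dendritic cell subset, had 65.7 and 61.4 CPM in GM-TC and 4.95 and 4.41 CPM in M-TC (log2 fold change 3.76 ± 0.10, adjusted p = 1.87e-18). Zbtb46, Ccr7 and Flt3, which also mark dendritic cells, stayed below 10 CPM in all 4 libraries, as did Cd209a. Itgax, Clec9a and Irf4 exceeded that level in both GM-TC libraries. Zbtb46, a transcription factor of that lineage, had 2.17 and 1.33 CPM in GM-TC and 0.399 and 0.337 CPM in M-TC (log2 fold change 2.21 ± 0.36, adjusted p = 1.68e-05). Ccr7, the receptor for homing to lymph nodes, had 9.19 and 9.62 CPM in GM-TC and 0 and 0.0748 CPM in M-TC (244-fold higher in GM-TC, with a 95% counting interval of 67.2 to 2024, adjusted p = 1.18e-14). Flt3, a growth factor receptor of dendritic cell precursors, had 4 and 3 counts in GM-TC and 0 and 2 counts in M-TC. Tcf4, a factor of plasmacytoid dendritic cells, was higher in M-TC, with 28 and 22.6 CPM in GM-TC and 114 and 107 CPM in M-TC (log2 fold change -2.13 ± 0.090, adjusted p = 3.90e-15). How far such cells account for the other differences was not tested.

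Of 28 genes associated with PPARγ and alveolar macrophages, 18 were DEGs higher in GM-TC and 1 was higher in M-TC. Pparg itself, the nuclear receptor for fatty acids, had 35.1 and 37.2 CPM in GM-TC and 19.1 and 18.6 CPM in M-TC (log2 fold change 0.94 ± 0.080, adjusted p = 9.24e-10), just under the fold limit. Siglecf, a sialic acid receptor of alveolar macrophages and eosinophils, had 78.9 and 79.8 CPM in GM-TC and 0.877 and 1.05 CPM in M-TC (log2 fold change 6.35 ± 0.15, adjusted p = 1.97e-19). Car4, a carbonic anhydrase of the same macrophages, had 21.9 and 22.5 CPM in GM-TC and 0.0798 and 0 CPM in M-TC (576-fold higher in GM-TC, with a 95% counting interval of 159 to 4764, adjusted p = 1.56e-18). The log2 fold changes of Siglecf and Car4 thus exceeded that of Pparg. Plet1, a surface protein of epithelial and myeloid cells, had 38.6 and 45.6 CPM in GM-TC and 0.0399 and 0.0748 CPM in M-TC (733-fold higher in GM-TC, with a 95% counting interval of 251 to 3559, adjusted p = 1.32e-19). Ear6, an eosinophil-associated ribonuclease, had 52.1 and 55.7 CPM in GM-TC and 0.0399 and 0.15 CPM in M-TC (log2 fold change 9.05 ± 0.19, adjusted p = 1.45e-20), and the ribonuclease Ear2 had 59 and 68.8 against 0.16 and 0.225 CPM, though the Ear genes are near copies of each other. Fabp4, a fatty acid binding protein and PPARγ target, had 91.2 and 101 CPM in GM-TC and 27.6 and 28.6 CPM in M-TC (log2 fold change 1.77 ± 0.075, adjusted p = 3.95e-15). Lpl, lipoprotein lipase, had 4335 and 4349 CPM in GM-TC and 1707 and 1658 CPM in M-TC (log2 fold change 1.37 ± 0.042, adjusted p = 1.36e-17). Cd36, a scavenger receptor for oxidised lipids, had 792 and 826 CPM in GM-TC and 484 and 502 CPM in M-TC (log2 fold change 0.71 ± 0.052, adjusted p = 6.02e-11). Fabp4, Lpl and Cd36 were all well expressed in M-TC and their differences were smaller. Siglec1, the sialoadhesin of many tissue macrophages, was the DEG higher in M-TC, with 33.4 and 26.8 CPM in GM-TC and 243 and 238 CPM in M-TC (log2 fold change -3.01 ± 0.093, adjusted p = 1.47e-17).

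Genes of alternative activation, a state known from IL-4 treatment, were higher in GM-TC in 25 of 29 cases and called in no case in the other direction. The median log2 fold change was 3.42, or 3.23 with Chil4 at its lower bound. Chil3, a chitinase-like protein, had 768 and 872 CPM in GM-TC and 2.11 and 1.91 CPM in M-TC (log2 fold change 8.67 ± 0.14, adjusted p = 1.51e-22), and it shares reads with Chil4. Arg1, arginase, had 54.1 and 51.9 CPM in GM-TC and 0.239 and 0.112 CPM in M-TC (log2 fold change 8.21 ± 0.36, adjusted p = 8.43e-15). Slc7a2, a transporter of arginine, had 479 and 412 CPM in GM-TC and 4.55 and 5.05 CPM in M-TC (log2 fold change 6.53 ± 0.11, adjusted p = 2.46e-22). Ass1, which resynthesises arginine, had 186 and 204 CPM in GM-TC and 14.3 and 15.3 CPM in M-TC (log2 fold change 3.72 ± 0.073, adjusted p = 4.80e-21). In all 4 genes both GM-TC libraries exceeded both M-TC libraries by a wide margin. Nos2, the inducible nitric oxide synthase that competes for arginine, had 0.454 and 0.644 against 0.518 and 0.449 CPM, and its groups overlapped (adjusted p = 0.712). Cdh1, the adhesion protein E-cadherin, had 23.2 and 21.9 CPM in GM-TC and 0.0798 and 0.0748 CPM in M-TC (log2 fold change 8.10 ± 0.24, adjusted p = 6.04e-18). Mrc1, the mannose receptor, had 604 and 549 CPM in GM-TC and 168 and 191 CPM in M-TC (log2 fold change 1.68 ± 0.076, adjusted p = 1.49e-14). Clec10a did not follow the list, with 7.12 and 8.7 CPM in GM-TC and 15 and 13.6 CPM in M-TC (log2 fold change -0.84 ± 0.13, adjusted p = 8.35e-06), and became a DEG higher in M-TC without GM-TC replicate 2 (-1.002) and with library size only (-1.16).

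Genes typical of resident tissue macrophages were divided, with 17 of 33 called higher in M-TC, 8 higher in GM-TC and the log2 fold changes had a median of -1.36. Stab1, the scavenger receptor stabilin-1, had 16.4 and 15.4 CPM in GM-TC and 989 and 1008 CPM in M-TC (log2 fold change -5.98 ± 0.070, adjusted p = 2.05e-24). Apoe, the lipid carrier apolipoprotein E, had 258 and 272 CPM in GM-TC and 2583 and 2579 CPM in M-TC (log2 fold change -3.28 ± 0.069, adjusted p = 1.48e-20). Gas6, which bridges dying cells to receptors of the TAM family, had 35.6 and 33.3 CPM in GM-TC and 606 and 614 CPM in M-TC (log2 fold change -4.15 ± 0.076, adjusted p = 1.77e-21). Cx3cr1, the fractalkine receptor of monocytes and microglia, had 2.42 and 2.42 CPM in GM-TC and 119 and 107 CPM in M-TC (log2 fold change -5.54 ± 0.11, adjusted p = 8.40e-21). Maf, a transcription factor of resident macrophages, had 22 and 24.7 CPM in GM-TC and 267 and 280.5 CPM in M-TC (log2 fold change -3.55 ± 0.089, adjusted p = 3.70e-19). These genes were lower in both GM-TC libraries by several-fold or more. Adgre1, the gene of the F4/80 antigen, was detected in all 4 libraries and differed less, with 214 and 228 CPM in GM-TC and 816 and 831 CPM in M-TC (log2 fold change -1.90 ± 0.049, adjusted p = 6.80e-19). Hpgds, prostaglandin D synthase, had 16.3 and 15.4 CPM in GM-TC and 224 and 219 CPM in M-TC (log2 fold change -3.81 ± 0.071, adjusted p = 2.05e-21). Against this direction stood Axl, a receptor of the TAM family, with 646 and 602 CPM in GM-TC and 125 and 126 CPM in M-TC (log2 fold change 2.31 ± 0.056, adjusted p = 2.13e-19), and Pf4, a platelet-type chemokine, with 23.9 and 29 CPM in GM-TC and 3.23 and 3.7 CPM in M-TC (log2 fold change 2.93 ± 0.12, adjusted p = 1.90e-15). The ligand Gas6 and its receptor Axl therefore differed in opposite directions.

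Receptors and bridging molecules for the uptake of dying cells held 8 DEGs higher in GM-TC and 4 higher in M-TC among 25 tested genes. Mfge8, a bridge to integrins, had 1515 and 1624 CPM in GM-TC and 78.7 and 75.6 CPM in M-TC (log2 fold change 4.35 ± 0.057, adjusted p = 6.81e-24), opposite to Gas6. Tyro3, another TAM receptor, had 19 and 18.4 CPM in GM-TC and 0.12 and 0.187 CPM in M-TC (log2 fold change 6.87 ± 0.25, adjusted p = 2.14e-16). Mertk, the TAM receptor of many macrophages, had 101 and 95.9 CPM in GM-TC and 51.2 and 49.9 CPM in M-TC (log2 fold change 0.96 ± 0.074, adjusted p = 1.50e-10), just under the fold limit that it passed without GM-TC replicate 2 (1.003). All 3 TAM receptors were thus higher in GM-TC, while Itgav, the integrin chain that Mfge8 binds, was lower, with 67.5 and 59.1 CPM in GM-TC and 164 and 167 CPM in M-TC (log2 fold change -1.39 ± 0.068, adjusted p = 5.28e-14). The MS4A family of membrane proteins was higher in M-TC in 7 of 9 genes, and log2 fold changes had a median of -3.28. Ms4a6b had 1.41 and 1.53 CPM in GM-TC and 74.9 and 79.4 CPM in M-TC (log2 fold change -5.70 ± 0.16, adjusted p = 1.56e-18). Ms4a7 had 11.1 and 12.2 CPM in GM-TC and 110.2 and 116 CPM in M-TC (log2 fold change -3.28 ± 0.078, adjusted p = 1.50e-19). Ms4a8a was the DEG of the family higher in GM-TC, with 1.46 and 1.89 CPM in GM-TC and 0 and 0.0374 CPM in M-TC (88.2-fold higher in GM-TC, with a 95% counting interval of 15.4 to 3529, adjusted p = 8.38e-08). The first component of complement moved with the M-TC genes. C1qb, a chain of C1q, had 134 and 154 CPM in GM-TC and 726 and 730.2 CPM in M-TC (log2 fold change -2.34 ± 0.070, adjusted p = 7.67e-18), and the chains C1qa and C1qc differed by -2.40 and -2.80 on the log2 scale.

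The complement list as a whole was split, with 6 DEGs higher in GM-TC and 7 higher in M-TC among 21, and its median was 0.12 with TMM factors, -0.19 with library size only and -0.11 without M-TC replicate 1. C5ar1, the receptor for the fragment C5a, had 35.5 and 33.7 CPM in GM-TC and 331 and 324 CPM in M-TC (log2 fold change -3.24 ± 0.058, adjusted p = 1.04e-21). Cfb, a protease of the alternative pathway, was higher in GM-TC, with 14.8 and 13.6 CPM in GM-TC and 1.59 and 2.99 CPM in M-TC (log2 fold change 2.61 ± 0.16, adjusted p = 2.90e-12). The anaphylatoxin receptor and the protease thus differed in opposite directions.

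Transcription factors of the macrophage lineage included 21 DEGs higher in GM-TC and 7 higher in M-TC among 45 tested. Spi1, the lineage factor PU.1, had 165 and 186 against 166 and 164 CPM, and its groups overlapped (adjusted p = 0.182). Bhlhe40, a repressor needed for the response of macrophages to GM-CSF, had 312 and 318 CPM in GM-TC and 19.6 and 18.7 CPM in M-TC (log2 fold change 4.04 ± 0.066, adjusted p = 2.72e-22). Egr2, an early growth response factor, had 117 and 113 CPM in GM-TC and 5.11 and 5.72 CPM in M-TC (log2 fold change 4.40 ± 0.092, adjusted p = 1.37e-20). Cebpa, a factor of granulocyte and monocyte differentiation, had 129 and 134 CPM in GM-TC and 23.3 and 24.4 CPM in M-TC (log2 fold change 2.46 ± 0.061, adjusted p = 2.82e-19). Each of these factors was several-fold higher in both GM-TC libraries. Cebpb, a related factor, had 176 and 199 CPM in GM-TC and 43 and 47 CPM in M-TC (log2 fold change 2.06 ± 0.067, adjusted p = 3.47e-17). Tfec, a partner of lysosomal factors, had 109.7 and 113 CPM in GM-TC and 19.1 and 17.2 CPM in M-TC (log2 fold change 2.62 ± 0.064, adjusted p = 2.11e-19). Id3, an inhibitor of E proteins known from Kupffer cells, was higher in M-TC, with 0.0505 and 0.201 CPM in GM-TC and 3.11 and 3.89 CPM in M-TC (log2 fold change -4.66 ± 0.39, adjusted p = 5.54e-10). Irf8, a factor of the monocyte lineage, had 75.7 and 78.9 CPM in GM-TC and 109 and 113 CPM in M-TC (log2 fold change -0.52 ± 0.058, adjusted p = 7.36e-08), a small difference that passed the test.

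Cytokine genes were divided at steady state, with 12 DEGs higher in GM-TC and 9 higher in M-TC among 35 tested, and log2 fold changes had a median of 0 that became -0.20 with library size only. Members of the IL-1 family and their inhibitor were higher in GM-TC. Il1a, an alarm cytokine, had 58.4 and 65.6 CPM in GM-TC and 0.439 and 0.374 CPM in M-TC (log2 fold change 7.24 ± 0.18, adjusted p = 3.58e-19). Il1b had 7.12 and 7.33 CPM in GM-TC and 0.758 and 1.12 CPM in M-TC (log2 fold change 2.93 ± 0.18, adjusted p = 3.89e-12). Il1rn, the receptor antagonist, had 224 and 232 CPM in GM-TC and 7.54 and 9.35 CPM in M-TC (log2 fold change 4.75 ± 0.073, adjusted p = 1.24e-22). No library of the M-TC group reached a GM-TC library in these 3 genes. Inhba, a subunit of activin A, had 169.6 and 149 CPM in GM-TC and 0.319 and 0.262 CPM in M-TC (log2 fold change 9.07 ± 0.19, adjusted p = 9.88e-21). On the other side stood Tnf, with 8.23 and 9.9 CPM in GM-TC and 26.6 and 26.1 CPM in M-TC (log2 fold change -1.53 ± 0.097, adjusted p = 5.76e-12), and Il10, which restrains inflammation, with 0 CPM in both GM-TC libraries and 2.99 and 2.32 CPM in M-TC (at least 19.5-fold lower in GM-TC, adjusted p = 3.68e-09). Tnfsf10, which encodes the death ligand TRAIL, had 0.707 and 0.644 CPM in GM-TC and 8.49 and 9.95 CPM in M-TC (log2 fold change -3.77 ± 0.26, adjusted p = 2.33e-11). Il6 and Il12b were below 1 CPM in all 4 libraries, with 0.303 and 0.201 against 0.0399 and 0 CPM for Il6 and 0.151 and 0.161 against 0 and 0 CPM for Il12b, and their calls were lost when GM-TC replicate 1, GM-TC replicate 2 or M-TC replicate 2 was left out. Cytokine receptors were called higher in GM-TC in 13 of 37 cases and higher in M-TC in 3. Il7r, the IL-7 receptor, had 410 and 406 CPM in GM-TC and 78.7 and 74.4 CPM in M-TC (log2 fold change 2.42 ± 0.061, adjusted p = 3.91e-19), and Il1rl2, the receptor for IL-36, had 58.6 and 55.8 CPM in GM-TC and 0.598 and 0.786 CPM in M-TC (log2 fold change 6.35 ± 0.13, adjusted p = 1.37e-20). Il6ra, the IL-6 receptor, was higher in M-TC, with 23 and 21.5 CPM in GM-TC and 99.3 and 98.7 CPM in M-TC (log2 fold change -2.16 ± 0.078, adjusted p = 2.49e-16).

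Among CC chemokines 7 of 14 were DEGs higher in GM-TC and 1 higher in M-TC, with Ccl6, Ccl17 and Ccl22 described above. Ccl2, the chemokine for monocytes, had 44.8 and 58.1 CPM in GM-TC and 3.19 and 3.67 CPM in M-TC (log2 fold change 3.91 ± 0.13, adjusted p = 3.29e-17). Ccl12 was the DEG higher in M-TC, at 0.252 and 0.201 against 0.957 and 0.786 CPM and hence below 1 CPM in every library. The CXC, CX3C and XC chemokines were split evenly, 4 to 4 of 13. Cxcl10, a chemokine induced by interferon, had 0.353 and 0.684 CPM in GM-TC and 23.5 and 26.7 CPM in M-TC (log2 fold change -5.53 ± 0.16, adjusted p = 3.12e-18). Ppbp, a platelet chemokine, had 9.59 and 12 CPM in GM-TC and 0.479 and 0.337 CPM in M-TC (log2 fold change 4.72 ± 0.26, adjusted p = 3.40e-13), in the direction of Pf4. Of 24 chemokine and chemoattractant receptors, 12 were higher in GM-TC and 6 higher in M-TC. Ccr1, a receptor for inflammatory CC chemokines, had 281 and 282 CPM in GM-TC and 2.23 and 2.47 CPM in M-TC (log2 fold change 6.90 ± 0.088, adjusted p = 5.39e-24). Ccr2, the receptor for Ccl2, had 48.4 and 47 CPM in GM-TC and 9.85 and 9.54 CPM in M-TC (log2 fold change 2.30 ± 0.095, adjusted p = 2.89e-15), and reads can be shared between related receptors. Ltb4r1, a leukotriene B4 receptor, had 5.15 and 4.95 CPM in GM-TC and 0 and 0.112 CPM in M-TC (87-fold higher in GM-TC, with a 95% counting interval of 29.4 to 425, adjusted p = 1.69e-11). C3ar1, the receptor for the fragment C3a, was higher in M-TC, with 356 and 359 CPM in GM-TC and 817 and 809 CPM in M-TC (log2 fold change -1.18 ± 0.052, adjusted p = 7.35e-15). Cxcr3, the receptor for Cxcl10, had 0.0505 and 0.0403 CPM in GM-TC and 3.03 and 3.07 CPM in M-TC (68.1-fold higher in M-TC, with a 95% counting interval of 18.5 to 567, adjusted p = 1.02e-08). Cxcr4, the receptor for CXCL12, had 69 and 73.6 CPM in GM-TC and 127 and 122 CPM in M-TC (log2 fold change -0.81 ± 0.066, adjusted p = 4.23e-10), past the fold limit with library size only (-1.12). Ccr1 and Ccr2 thus lay higher in GM-TC, and Cxcr3, Cx3cr1, C3ar1 and C5ar1 lay higher in M-TC.

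Pattern recognition receptors differed by family. C-type lectins held 12 DEGs higher in GM-TC and 4 higher in M-TC among 21. Clec7a, the β-glucan receptor Dectin-1, had 1355 and 1449 CPM in GM-TC and 147 and 146 CPM in M-TC (log2 fold change 3.26 ± 0.059, adjusted p = 1.17e-21). Clec4n, Dectin-2, had 736 and 827 CPM in GM-TC and 9.97 and 9.8 CPM in M-TC (log2 fold change 6.30 ± 0.085, adjusted p = 1.06e-23). Clec4e, the receptor Mincle, was higher in M-TC, with 21.8 and 25.6 CPM in GM-TC and 189 and 181 CPM in M-TC (log2 fold change -2.96 ± 0.072, adjusted p = 1.86e-19). Clec12a, an inhibitory receptor for uric acid crystals, had 14.6 and 15.2 CPM in GM-TC and 303 and 307 CPM in M-TC (log2 fold change -4.35 ± 0.069, adjusted p = 1.51e-22). The 2 Dectins thus differed in the opposite direction to Mincle and Clec12a. Toll-like receptors and the LPS receptor complex held 3 DEGs higher in GM-TC and 7 higher in M-TC among 28. Cd14, the LPS co-receptor, had 156 and 176 CPM in GM-TC and 431 and 419.7 CPM in M-TC (log2 fold change -1.36 ± 0.059, adjusted p = 6.36e-15). Tlr9, a receptor for bacterial DNA, had 15.6 and 11.9 CPM in GM-TC and 71.7 and 69.8 CPM in M-TC (log2 fold change -2.38 ± 0.090, adjusted p = 5.23e-16). Tlr7, a receptor for single-stranded RNA, had 221 and 201 CPM in GM-TC and 484 and 475 CPM in M-TC (log2 fold change -1.18 ± 0.065, adjusted p = 4.82e-13). Cd180, a relative of Tlr4, had 95 and 91.6 CPM in GM-TC and 336 and 333 CPM in M-TC (log2 fold change -1.84 ± 0.049, adjusted p = 8.26e-19). Tlr4 itself had 238 and 205 against 218 and 218 CPM, and its groups overlapped (adjusted p = 0.814).

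Among 11 Fc receptors, which bind antibodies, 2 were DEGs higher in GM-TC and 4 higher in M-TC. Fcgr2b, the inhibitory receptor for IgG, had 379 and 386 CPM in GM-TC and 35.9 and 35.9 CPM in M-TC (log2 fold change 3.41 ± 0.056, adjusted p = 2.59e-22). Fcgr1, the high-affinity receptor for IgG, had 43 and 51.5 CPM in GM-TC and 118 and 118 CPM in M-TC (log2 fold change -1.32 ± 0.081, adjusted p = 3.08e-12). Fcgr3 had 692 and 744 against 242 and 256 CPM (log2 fold change 1.53), and it shares reads with Fcgr2b. The inhibitory and the high-affinity receptor thus differed in opposite directions. Of 17 scavenger receptors 5 were higher in GM-TC and 3 higher in M-TC, and their median was 0.17 with TMM factors and -0.14 with library size only. Msr1, scavenger receptor A, had 461 and 459.9 CPM in GM-TC and 116 and 119 CPM in M-TC (log2 fold change 1.97 ± 0.053, adjusted p = 1.33e-18). Olr1, a receptor for oxidised lipoprotein, had 35.4 and 36.8 CPM in GM-TC and 0.12 and 0.112 CPM in M-TC (log2 fold change 8.22 ± 0.18, adjusted p = 2.99e-20). Cd163, the haemoglobin receptor, was higher in M-TC, with 1.56 and 1.81 CPM in GM-TC and 7.46 and 7.86 CPM in M-TC (log2 fold change -2.17 ± 0.21, adjusted p = 6.21e-09).

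Of the lists examined, the ISGs had the largest share of DEGs higher in M-TC. They are induced by type I interferon through response elements in their promoters. Of 48 tested ISGs, 42 were DEGs higher in M-TC and 2 higher in GM-TC, and log2 fold changes had a median of -1.92, comparing with 8.54% of all genes in that direction. The promoters of 3 of them, picked after their values were seen to show the element, are printed as the 160 bases before the start site, 5′ to 3′ on the strand of the gene, from RefSeq's annotation of build GRCm38.p6, with matches to the response element letters GAAANNGAAA on either strand in capitals. Ifit1 lies on chr19:34640729-34640888 (plus strand), Ifit3 on chr19:34583369-34583528 (plus strand) and Isg15 on chr4:156200819-156200978 (minus strand).
Ifit1: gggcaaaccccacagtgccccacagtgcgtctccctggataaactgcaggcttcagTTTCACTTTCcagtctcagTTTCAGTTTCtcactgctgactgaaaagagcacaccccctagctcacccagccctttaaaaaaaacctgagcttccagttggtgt
Ifit3: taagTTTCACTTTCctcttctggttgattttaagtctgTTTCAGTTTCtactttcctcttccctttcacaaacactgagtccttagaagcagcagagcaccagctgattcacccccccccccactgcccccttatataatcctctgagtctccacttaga
Isg15: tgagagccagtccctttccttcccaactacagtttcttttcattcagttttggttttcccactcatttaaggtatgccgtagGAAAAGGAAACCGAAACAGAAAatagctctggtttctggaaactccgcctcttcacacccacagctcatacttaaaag

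Ifit1 held 2 matches, Ifit3 held 2 and Isg15 held 3 that overlap. In windows of 250 bases before to 50 bases after the start site, 3.99% of 27025 genes held such a match. Promoters were found for 36 of the 48 tested ISGs, too few for a share over the list to be read. A match describes the sequence and does not show binding.

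Ifit1, an RNA-binding protein that blocks translation of foreign RNA, had 5.0 and 5.11 CPM in GM-TC and 96.2 and 98.8 CPM in M-TC (log2 fold change -4.27 ± 0.070, adjusted p = 2.96e-22). Ifit2, from the same family, had 9.64 and 7.61 CPM in GM-TC and 205 and 226 CPM in M-TC (log2 fold change -4.66 ± 0.094, adjusted p = 7.21e-21). Isg15, a ubiquitin-like modifier, had 1.46 and 2.33 CPM in GM-TC and 23.1 and 26.4 CPM in M-TC (log2 fold change -3.67 ± 0.13, adjusted p = 2.05e-16). In these genes both M-TC libraries lay at least several-fold above both GM-TC libraries. Ifit3, which partners with Ifit1, had 2.07 and 2.46 CPM in GM-TC and 83.2 and 89.8 CPM in M-TC (log2 fold change -5.24 ± 0.098, adjusted p = 2.05e-21), and it shares reads with Ifit3b. Irf7, which amplifies the response, had 3.13 and 4.91 CPM in GM-TC and 68.6 and 78.8 CPM in M-TC (log2 fold change -4.16 ± 0.13, adjusted p = 9.03e-18). Oasl2, an oligoadenylate synthetase-like protein, had 24 and 23 CPM in GM-TC and 185 and 188 CPM in M-TC (log2 fold change -2.99 ± 0.070, adjusted p = 1.16e-19). Rsad2, the antiviral protein viperin, had 12.7 and 11.1 CPM in GM-TC and 98.4 and 111 CPM in M-TC (log2 fold change -3.14 ± 0.077, adjusted p = 2.13e-19). Ifitm1, an interferon-induced membrane protein, went the other way, with 29.2 and 36.7 CPM in GM-TC and 0.957 and 1.12 CPM in M-TC (log2 fold change 4.98 ± 0.20, adjusted p = 2.18e-15). Gbp7, a guanylate-binding protein, was the other ISG higher in GM-TC, with 53.3 and 46.3 CPM in GM-TC and 21.1 and 24.9 CPM in M-TC (log2 fold change 1.11 ± 0.091, adjusted p = 4.76e-10), under the fold limit without GM-TC replicate 1 (0.99), without M-TC replicate 1 (0.98) and with library size only (0.80). As the plot of list medians shows, the ISGs of M-TC were higher than those of GM-TC, and both lay below the groups with LPS.

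Genes of mitosis and cytokinesis were also higher in M-TC. They act late in the cell cycle, and many have CCAAT boxes and CHR elements through which repressor and activator complexes act. Of 66 tested members 46 were DEGs higher in M-TC and 0 were higher in GM-TC, and without the fold limit 64 passed the test. Their median log2 fold change was -1.12. The promoters of Ccnb2 (chr9:70421555-70421714, minus strand) and Cdc20 (chr4:118437344-118437503, minus strand) were picked likewise and are printed in the same way, with CCAAT and TTTGAA, the CHR letters, on either strand in capitals.
Ccnb2: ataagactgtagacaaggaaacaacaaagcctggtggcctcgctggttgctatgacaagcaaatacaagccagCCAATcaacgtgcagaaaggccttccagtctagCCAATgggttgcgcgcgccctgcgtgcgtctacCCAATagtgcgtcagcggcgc
Cdc20: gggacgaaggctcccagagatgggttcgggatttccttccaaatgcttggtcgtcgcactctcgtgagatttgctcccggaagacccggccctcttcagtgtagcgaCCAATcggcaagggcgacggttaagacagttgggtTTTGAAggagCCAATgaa

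Ccnb2 held 3 CCAAT matches and 0 TTTGAA matches in the printed bases. Cdc20 held 2 CCAAT matches and 1 TTTGAA match, and none of the matches overlap. Among the 56 mitosis genes with a promoter entry, 71.4% held CCAAT and 67.9% held TTTGAA in the longer window, comparing with 41.1% and 20.2% of the 27025 genes. Ccnb2, a mitotic cyclin, had 9.09 and 13 CPM in GM-TC and 37.5 and 39.8 CPM in M-TC (log2 fold change -1.79 ± 0.10, adjusted p = 1.02e-12). Cdc20, an activator of the anaphase-promoting complex, had 7.17 and 8.05 CPM in GM-TC and 21.5 and 21.7 CPM in M-TC (log2 fold change -1.50 ± 0.12, adjusted p = 5.27e-10). Top2a, a topoisomerase, had 98.1 and 90.9 CPM in GM-TC and 236 and 249 CPM in M-TC (log2 fold change -1.36 ± 0.060, adjusted p = 7.99e-15). Both GM-TC libraries were below both M-TC libraries in each of these. Mki67, the proliferation marker, had 279 and 198 CPM in GM-TC and 499.8 and 502 CPM in M-TC (log2 fold change -1.07 ± 0.091, adjusted p = 7.65e-10), and it fell under the fold limit without GM-TC replicate 2 (-0.845). Aspm, a spindle protein, had 10.7 and 8.01 CPM in GM-TC and 44.8 and 46.8 CPM in M-TC (log2 fold change -2.31 ± 0.13, adjusted p = 5.87e-13). Cdk1, the mitotic kinase, had 23.3 and 24.9 CPM in GM-TC and 37.5 and 39.6 CPM in M-TC (log2 fold change -0.68 ± 0.076, adjusted p = 7.80e-08), under the fold limit. Genes of DNA replication and S phase gave 1 DEG higher in M-TC and 1 higher in GM-TC among 55, and 29 and 6 passed the test without the fold limit, and log2 fold changes had a median of -0.26. With library size only 8 were DEGs higher in M-TC, and without GM-TC replicate 1 there were 3. Mcm2, a subunit of the replicative helicase, had 23.9 and 24.2 CPM in GM-TC and 25.8 and 24.1 CPM in M-TC, and its groups overlapped (log2 fold change -0.05 ± 0.079, adjusted p = 0.589). Tk1, thymidine kinase, was higher in M-TC, with 4.64 and 4.83 CPM in GM-TC and 17.6 and 17.1 CPM in M-TC (log2 fold change -1.87 ± 0.11, adjusted p = 2.45e-12), and Ccne1, cyclin E1, was higher in GM-TC, with 15.3 and 13.8 CPM in GM-TC and 4.47 and 5.24 CPM in M-TC (log2 fold change 1.57 ± 0.14, adjusted p = 1.03e-09).

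**Figure D4:**
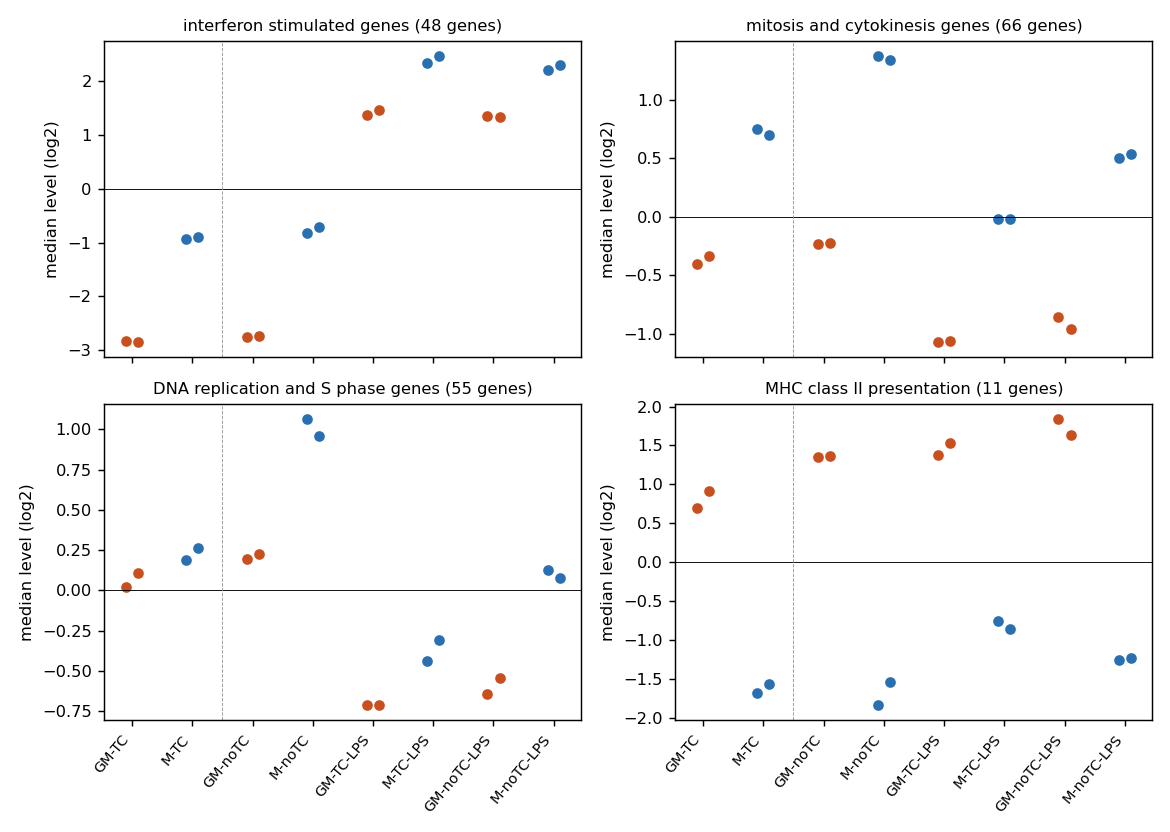
Median over the members of a list of log2(CPM + 0.5), set relative to each member's mean over 16 libraries, for ISGs, mitosis, S phase and MHC class II genes, with 1 point per library in each of the 8 groups. At steady state on TC dishes the ISG medians are -2.84 and -2.85 for the GM-TC libraries and -0.93 and -0.91 for the M-TC libraries, and the mitosis medians are -0.41 and -0.34 for the GM-TC libraries and 0.75 and 0.70 for the M-TC libraries.

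Proteases and their regulators were prominent on the GM-TC side. Matrix metalloproteinases, ADAM proteases and inhibitors held 12 DEGs higher in GM-TC and 2 higher in M-TC among 21, and log2 fold changes had a median of 2.02. Mmp8, the neutrophil collagenase, had 719.7 and 720.2 CPM in GM-TC and 10.9 and 12.1 CPM in M-TC (log2 fold change 5.97 ± 0.074, adjusted p = 3.13e-24). Mmp19 had 552 and 553 CPM in GM-TC and 22.9 and 22.5 CPM in M-TC (log2 fold change 4.61 ± 0.076, adjusted p = 2.89e-22). Mmp14, a membrane-bound collagenase, had 68.9 and 62.1 CPM in GM-TC and 5.5 and 5.54 CPM in M-TC (log2 fold change 3.56 ± 0.10, adjusted p = 4.86e-18). Together with Mmp12, these enzymes were several-fold higher in both GM-TC libraries. Adam8, a sheddase of leukocytes, was higher in M-TC, with 105 and 105 CPM in GM-TC and 289.9 and 291 CPM in M-TC (log2 fold change -1.47 ± 0.056, adjusted p = 5.79e-16). Coagulation and plasminogen activation genes were higher in GM-TC in 15 of 23 cases and higher in M-TC in 1, and log2 fold changes had a median of 2.97, or 2.61 with Tfpi2 at its bound. F10, coagulation factor X, had 134 and 130.3 CPM in GM-TC and 4.47 and 4.64 CPM in M-TC (log2 fold change 4.86 ± 0.091, adjusted p = 2.33e-21). F7, factor VII, had 42.8 and 44.6 CPM in GM-TC and 0.957 and 1.08 CPM in M-TC (log2 fold change 5.41 ± 0.15, adjusted p = 1.40e-18). Plau, the urokinase plasminogen activator, had 240.5 and 258 CPM in GM-TC and 16.3 and 16.2 CPM in M-TC (log2 fold change 3.94 ± 0.069, adjusted p = 8.19e-22). Plaur, its receptor, had 314 and 344 CPM in GM-TC and 8.93 and 9.95 CPM in M-TC (log2 fold change 5.12 ± 0.072, adjusted p = 2.15e-23). Enzyme and receptor of the urokinase system were hence both higher in GM-TC.

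Genes of osteoclasts and cell fusion held 9 DEGs higher in GM-TC and 2 higher in M-TC among 21. Acp5, the tartrate-resistant phosphatase, had 306 and 324 CPM in GM-TC and 6.86 and 6.88 CPM in M-TC (log2 fold change 5.52 ± 0.085, adjusted p = 1.24e-22). Atp6v0d2, a proton pump subunit, had 1346 and 1365 CPM in GM-TC and 42.9 and 43.4 CPM in M-TC (log2 fold change 4.97 ± 0.058, adjusted p = 2.05e-24). Dcstamp, a protein required for fusion, had 42.6 and 45.5 CPM in GM-TC and 1.44 and 0.898 CPM in M-TC (log2 fold change 5.25 ± 0.13, adjusted p = 4.44e-19). These effector and fusion genes were many-fold higher in both GM-TC libraries. Tnfrsf11a, which encodes the receptor RANK, was higher in M-TC, with 16.5 and 15.3 CPM in GM-TC and 47.2 and 48.2 CPM in M-TC (log2 fold change -1.59 ± 0.069, adjusted p = 5.88e-15). Nfatc1, the master factor of osteoclasts, had 49.4 and 41 CPM in GM-TC and 64.8 and 66.6 CPM in M-TC (log2 fold change -0.55 ± 0.073, adjusted p = 1.12e-06), under the fold limit.

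Integrins and adhesion receptors were called higher in GM-TC in 15 of 35 cases and higher in M-TC in 7. Itgam, the CD11b chain, had 1972 and 1775 CPM in GM-TC and 739 and 727 CPM in M-TC (log2 fold change 1.35 ± 0.049, adjusted p = 2.29e-16). Itgb2, the chain CD18 that pairs with CD11b and CD11c, had 2159 and 2126 CPM in GM-TC and 511 and 508 CPM in M-TC (log2 fold change 2.07 ± 0.047, adjusted p = 6.31e-20). Itga6, a laminin receptor chain, was higher in M-TC, with 14.7 and 12.4 CPM in GM-TC and 144 and 144 CPM in M-TC (log2 fold change -3.42 ± 0.094, adjusted p = 1.70e-18). Itga4, a chain of the receptor for VCAM1, had 94.7 and 78.1 CPM in GM-TC and 482 and 459 CPM in M-TC (log2 fold change -2.45 ± 0.072, adjusted p = 6.39e-18). The β2 integrin chains thus lay higher in GM-TC, and these other alpha chains lay higher in M-TC. Sdc4, a syndecan that carries heparan sulphate, had 4.64 and 4.51 CPM in GM-TC and 90.2 and 91 CPM in M-TC (log2 fold change -4.31 ± 0.077, adjusted p = 1.07e-21). Extracellular matrix genes held 7 DEGs higher in GM-TC and 5 higher in M-TC among 27. Fn1, fibronectin, had 391 and 293 CPM in GM-TC and 1.79 and 1.53 CPM in M-TC (log2 fold change 7.68 ± 0.17, adjusted p = 3.46e-20), the largest fold change of the list on the GM-TC side. Spp1, osteopontin, had 11890 and 12980 CPM in GM-TC and 6540 and 6008 CPM in M-TC (log2 fold change 0.99 ± 0.059, adjusted p = 1.69e-12), just under the fold limit that it passed without GM-TC replicate 1 or M-TC replicate 1 (1.03 in both cases). Actin and podosome genes were mostly below the fold limit, with 8 and 3 DEGs of 47, and their median of 0.087 became -0.23 with library size only. Marcksl1, an actin-binding substrate of protein kinase C, was higher in M-TC, with 12.1 and 14.2 CPM in GM-TC and 143 and 149 CPM in M-TC (log2 fold change -3.46 ± 0.068, adjusted p = 4.80e-21).

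Genes of energy metabolism showed small and widespread differences. Of 26 glycolysis genes 19 passed the test higher in GM-TC and 4 higher in M-TC, but only 8 and 3 passed the fold limit. Slc2a1, the glucose transporter GLUT1, had 107 and 113 CPM in GM-TC and 30.9 and 32.5 CPM in M-TC (log2 fold change 1.79 ± 0.069, adjusted p = 6.82e-16). Ldha, lactate dehydrogenase A, had 478 and 512 CPM in GM-TC and 340.3 and 344 CPM in M-TC (log2 fold change 0.53 ± 0.046, adjusted p = 1.08e-09). Nuclear genes of oxidative phosphorylation differed similarly, with 63 of 76 passing the test higher in GM-TC, 1 higher in M-TC and 1 past the fold limit, and their median log2 fold change was 0.45, or 0.13 with library size only. Sdha, a subunit of succinate dehydrogenase, had 218 and 221 CPM in GM-TC and 164 and 163 CPM in M-TC (log2 fold change 0.42 ± 0.049, adjusted p = 1.12e-07). Atp5a1, a subunit of ATP synthase, had 560.4 and 584 CPM in GM-TC and 380.1 and 366 CPM in M-TC (log2 fold change 0.62 ± 0.045, adjusted p = 7.43e-11). The genes encoded in the mitochondria, a list made after their values were seen, differed more. All 13 passed the test higher in GM-TC, 9 of them past the fold limit, with a median log2 fold change of 1.17. They took 7.89% and 8.35% of all counts of the GM-TC libraries and 4.52% and 4.35% of those of M-TC. Whether this share reflects RNA quality was not tested.

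Of 36 genes of cholesterol and fatty acid synthesis, 5 were DEGs higher in GM-TC and 1 higher in M-TC. Scd1, a desaturase, had 369 and 356 CPM in GM-TC and 32.2 and 31.3 CPM in M-TC (log2 fold change 3.51 ± 0.060, adjusted p = 4.67e-22), and its relative Scd2 had 904 and 854 against 301 and 310.1 CPM (log2 fold change 1.52), with reads shared between relatives. Both desaturases were thus DEGs higher in GM-TC. LXR targets and genes of lipid storage held 8 DEGs higher in GM-TC and 3 higher in M-TC among 29, with a median of 0.11 that became -0.21 with library size only. Abcg1, a cholesterol exporter, had 657 and 642 CPM in GM-TC and 190.1 and 187 CPM in M-TC (log2 fold change 1.79 ± 0.056, adjusted p = 1.98e-17). Nr1h3, the gene of LXRα, had 5.65 and 6.4 against 7.58 and 6.77 CPM and did not pass the test (adjusted p = 0.162). Pltp, the phospholipid transfer protein, was higher in M-TC, with 27.5 and 26.9 CPM in GM-TC and 158 and 168 CPM in M-TC (log2 fold change -2.58 ± 0.072, adjusted p = 2.16e-18), in the direction of Apoe.

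Of 56 lysosomal genes 13 were DEGs higher in GM-TC and 1 was higher in M-TC. Ctsl, cathepsin L, had 1338 and 1472 CPM in GM-TC and 361 and 364 CPM in M-TC (log2 fold change 1.96 ± 0.049, adjusted p = 3.63e-19). Ctsk, the collagen-degrading cathepsin K, had 71.3 and 76.7 CPM in GM-TC and 5.98 and 5.09 CPM in M-TC (log2 fold change 3.74 ± 0.091, adjusted p = 1.86e-19). Sgsh, a sulphatase of heparan sulphate, was the DEG higher in M-TC, with 5.5 and 5.19 CPM in GM-TC and 65.6 and 64.6 CPM in M-TC (log2 fold change -3.61 ± 0.092, adjusted p = 4.22e-19). The cathepsins named here lay higher in GM-TC, while Lyz2, lysozyme, had 33790 and 37170 against 19570 and 19140 CPM, a difference under 2-fold, and shares reads with its copy Lyz1. Antioxidant genes controlled by NRF2 held 7 DEGs higher in GM-TC and 3 higher in M-TC among 31. Slc7a11, the cystine transporter, had 182 and 150.3 CPM in GM-TC and 23.2 and 18.3 CPM in M-TC (log2 fold change 3.00 ± 0.099, adjusted p = 4.52e-17). Gstm2, a glutathione transferase, had 27.5 and 29.8 CPM in GM-TC and 0.558 and 0.823 CPM in M-TC (log2 fold change 5.36 ± 0.16, adjusted p = 6.42e-18). Sod1, a superoxide dismutase, was higher in M-TC, with 27.2 and 33.1 CPM in GM-TC and 72.6 and 74.4 CPM in M-TC (log2 fold change -1.28 ± 0.079, adjusted p = 3.63e-12). Genes of iron handling were mostly called on the M-TC side, 4 against 1 of 19, although their median was 0.20 with TMM factors and -0.11 with library size only. Slc40a1, the iron exporter ferroportin, had 19.9 and 17.6 CPM in GM-TC and 79.1 and 91.5 CPM in M-TC (log2 fold change -2.19 ± 0.082, adjusted p = 4.35e-16). Tfrc, the transferrin receptor, had 37.6 and 34.9 CPM in GM-TC and 84.7 and 84.2 CPM in M-TC (log2 fold change -1.22 ± 0.063, adjusted p = 1.44e-13). The importer and the exporter of iron were thus both higher in M-TC.

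NADPH oxidase genes held 1 DEG higher in GM-TC and 2 higher in M-TC among 9, and their median of 0.018 became -0.30 with library size only, -0.028 with DESeq2's size factors, -0.045 without GM-TC replicate 2 and -0.030 without M-TC replicate 2. Cybb, the catalytic subunit of phagocytes, had 2330 and 2149 CPM in GM-TC and 1433 and 1387 CPM in M-TC (log2 fold change 0.67 ± 0.049, adjusted p = 7.18e-11), under the fold limit. Enzymes and receptors of eicosanoids held 11 DEGs higher in GM-TC and 3 higher in M-TC among 25. Ptgs1, cyclooxygenase 1, had 249 and 243 CPM in GM-TC and 112 and 117 CPM in M-TC (log2 fold change 1.10 ± 0.058, adjusted p = 1.92e-13), or 0.79 with library size only. Ptgir, the prostacyclin receptor, had 239 and 240.3 CPM in GM-TC and 15.9 and 18 CPM in M-TC (log2 fold change 3.82 ± 0.077, adjusted p = 7.21e-21). Hpgd, which inactivates prostaglandins, was higher in M-TC, with 12.2 and 13.3 CPM in GM-TC and 80.6 and 78.3 CPM in M-TC (log2 fold change -2.64 ± 0.11, adjusted p = 5.12e-15). A synthesising enzyme and a receptor thus lay higher in GM-TC and the inactivating enzyme higher in M-TC. Among 16 purinergic and adenosine receptors and related enzymes 10 were DEGs higher in GM-TC and 2 higher in M-TC. Nt5e, the enzyme CD73 that makes adenosine, had 2.68 and 1.53 CPM in GM-TC and 0.0798 and 0 CPM in M-TC (52.8-fold higher in GM-TC, with a 95% counting interval of 14.2 to 443, adjusted p = 2.41e-07). P2rx7, the ATP-gated channel of the inflammasome, had 63.3 and 67.2 CPM in GM-TC and 110.4 and 121 CPM in M-TC (log2 fold change -0.82 ± 0.072, adjusted p = 1.21e-09), past the fold limit with library size only (-1.14). P2ry6, a receptor for UDP, was higher in M-TC, with 53.7 and 57.9 CPM in GM-TC and 126 and 129.6 CPM in M-TC (log2 fold change -1.19 ± 0.067, adjusted p = 6.54e-13).

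Markers of other cell types that a marrow culture may hold were examined, and their sums are given without TMM scaling. Neutrophil and granule genes were DEGs higher in GM-TC in 10 of 17 tested cases, of 27 listed, and higher in M-TC in 3. Their sums were 891 and 888 CPM in GM-TC and 189 and 182 CPM in M-TC, most of the GM-TC sum coming from Mmp8. The defining genes of neutrophils were low. S100a9, a calcium-binding protein of neutrophils, had 3.23 and 3.06 CPM in GM-TC and 0.0399 and 0.15 CPM in M-TC (log2 fold change 4.95 ± 0.49, adjusted p = 9.48e-09). Ngp, neutrophilic granule protein, had 4.95 and 7.81 CPM in GM-TC and 0.0399 and 0.0374 CPM in M-TC (169-fold higher in GM-TC, with a 95% counting interval of 46.5 to 1406, adjusted p = 2.22e-10). Ltf, lactoferrin, had 2.37 and 2.05 CPM in GM-TC and 0.0399 and 0.0374 CPM in M-TC (56.9-fold higher in GM-TC, with a 95% counting interval of 15.3 to 476, adjusted p = 1.86e-08). None of these 3 reached 10 CPM in any of the 4 libraries. Monocyte genes held 13 DEGs higher in GM-TC and 5 higher in M-TC among 23, with sums of 2502 and 2432 CPM against 1471 and 1433 CPM. Ly6c2, the classical monocyte marker, had 12.4 and 15.2 CPM in GM-TC and 0.0399 and 0.15 CPM in M-TC (log2 fold change 7.09 ± 0.35, adjusted p = 7.87e-14). Of 10 listed eosinophil genes 6 were tested, 5 being higher in GM-TC and 1, Ccr3, higher in M-TC. Their sums were 216 and 228 CPM against 2.49 and 2.97 CPM, and these came from Siglecf and the Ear ribonucleases, which alveolar macrophages also express. Prg3, a granule gene of eosinophils, had no count in any of the 4 libraries. Mast cell and basophil genes were higher in GM-TC in all 10 tested cases, of 20 listed, with sums of 47.9 and 43.6 CPM against 10.8 and 11.1 CPM. Kit, the receptor for stem cell factor, had 32.2 and 27.4 CPM in GM-TC and 5.38 and 5.8 CPM in M-TC (log2 fold change 2.41 ± 0.13, adjusted p = 4.98e-13), while Fcer1a, the receptor chain for IgE, had no count. Genes nearly absent in M-TC passed the filter on low counts only through groups where they were higher, so these counts of DEGs are partly set by the filter. The part of such cells in the results was not tested.

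Of the lymphoid and erythroid genes few were expressed highly enough to be tested, while most stromal and heart genes were. B cell genes had sums of 61.7 and 59.1 CPM in GM-TC and 88.4 and 93.0 CPM in M-TC, with 4 of 15 tested, 2 higher in GM-TC and 1 higher in M-TC. Ighm, the heavy chain of IgM, had 12.9 and 16.6 CPM in GM-TC and 59.2 and 61.8 CPM in M-TC (log2 fold change -2.02 ± 0.091, adjusted p = 1.25e-14). T and NK cell genes had sums of 572 and 546 CPM against 463 and 457 CPM, carried by Il7r and Cd28, with 3 of 5 tested higher in GM-TC and 2 higher in M-TC, and Cd3e, Ncr1 and Nkg7 had no count in any of the 4 libraries. Cd28, the costimulatory receptor, had 93 and 83.5 CPM in GM-TC and 253 and 251 CPM in M-TC (log2 fold change -1.51 ± 0.064, adjusted p = 3.99e-15). Erythroid and megakaryocyte genes had sums of 20.4 and 23.2 CPM against 2.10 and 2.45 CPM. Of 14 listed 5 were tested and 4 were higher in GM-TC, a count that the filter partly sets in the same way. Stromal and fibroblast genes had sums of 54.7 and 51.2 CPM against 53.3 and 51.1 CPM, 5 of 17 being higher in GM-TC and 1 higher in M-TC. Postn, periostin, had 21.2 and 21.1 CPM in GM-TC and 0.199 and 0.112 CPM in M-TC (log2 fold change 7.05 ± 0.25, adjusted p = 2.04e-16). Of the heart genes 1 of 32 was higher in GM-TC and 2 were higher in M-TC, a count that went from 0 to 5 with the library left out, and the ranges of their sums in the 2 groups overlapped.

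The same comparison on noTC dishes gave 1622 DEGs higher in GM-noTC (13%) and 1151 higher in M-noTC (9.20%). Of the DEGs higher in GM-TC 1399 (84.4%) were shared with noTC dishes, where they made up 86.2% of the DEGs of that direction, and no DEG was called in the opposite direction. Of the DEGs higher in M-TC 823 (77.0%) were shared, which was 71.5% of those on noTC dishes. Tested directly, the difference between the growth factors depended on the dish for 1404 genes (11.2%). 540 of the DEGs on TC dishes were among them, of which 362 differed more on TC, 166 differed less and 12 had the opposite sign. Since these genes were chosen by a large difference on TC dishes, the choice itself favours larger differences there. The split therefore does not show on which dish the growth factors differed more. After the excess reads of the noTC libraries had been subtracted as a fixed share of the mean of the other 10 libraries, a step chosen after seeing the data, 1331 genes passed. These 10 were all libraries with LPS and the noTC libraries of the other growth factor.

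Of the 6 genes with the smallest adjusted p for this dependence at 5 CPM or more, Plau kept its value after the subtraction. Its levels (mean ± SD, n = 2) were 249 ± 12.3 in GM-TC, 16.2 ± 0.025 in M-TC, 258 ± 4.64 in GM-noTC and 68.9 ± 0.855 CPM in M-noTC, and the difference of the differences was 2.03 on the log2 scale, adjusted p = 1.34e-12, or 2.02 after the subtraction. Plau was thus higher in GM cells on both dishes, and more so on TC. Cxcl10 stood at 0.519 ± 0.234 in GM-TC, 25.1 ± 2.28 in M-TC, 28.1 ± 1.7 in GM-noTC and 40.3 ± 2.98 CPM in M-noTC, a dependence of -5.01 on the log2 scale, adjusted p = 1.89e-13. After the subtraction that value was -0.71 and did not pass (adjusted p = 0.634). Rsad2, Cmpk2 and Il1a also lost the call, with -2.01, -1.96 and 4.36 on the log2 scale before and -0.185, -0.035 and 1.60 after. Ifit1 went from -2.17 to -0.50 and remained past the threshold (adjusted p = 0.00628). The subtraction also lowers genes that LPS induces, so it cannot tell excess reads from a rise of such genes on noTC dishes. Cxcl10 lay under 1 CPM in GM-TC, as did the genes that set the share for GM-noTC, so it may be among them. Il1a lay under 1 CPM in M-TC and may likewise be among the genes that set the share for M-noTC. The loss of a call in such a gene would be partly fixed by the step itself. Genes of S phase depended on the dish in 43 of 55 cases, and their median log2 fold change was -0.26 on TC and -0.90 on noTC dishes. Mcm2 differed by -0.05 on TC and -0.88 on noTC dishes on the log2 scale (adjusted p of the dependence = 1.60e-05). In the plot of list medians the S phase medians of M-CSF cultures were 0.19 and 0.26 on TC and 1.07 and 0.96 on noTC dishes. Those of GM-CSF cultures were 0.02 and 0.11 on TC and 0.20 and 0.23 on noTC dishes. Mitosis genes depended on the dish in 31 of 66 cases, with medians of -1.12 and -1.61, and 46 were DEGs higher in the M-CSF group on both dishes. ISGs kept their direction on noTC dishes, where 41 of the 42 were also DEGs.

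**Figure D5:**
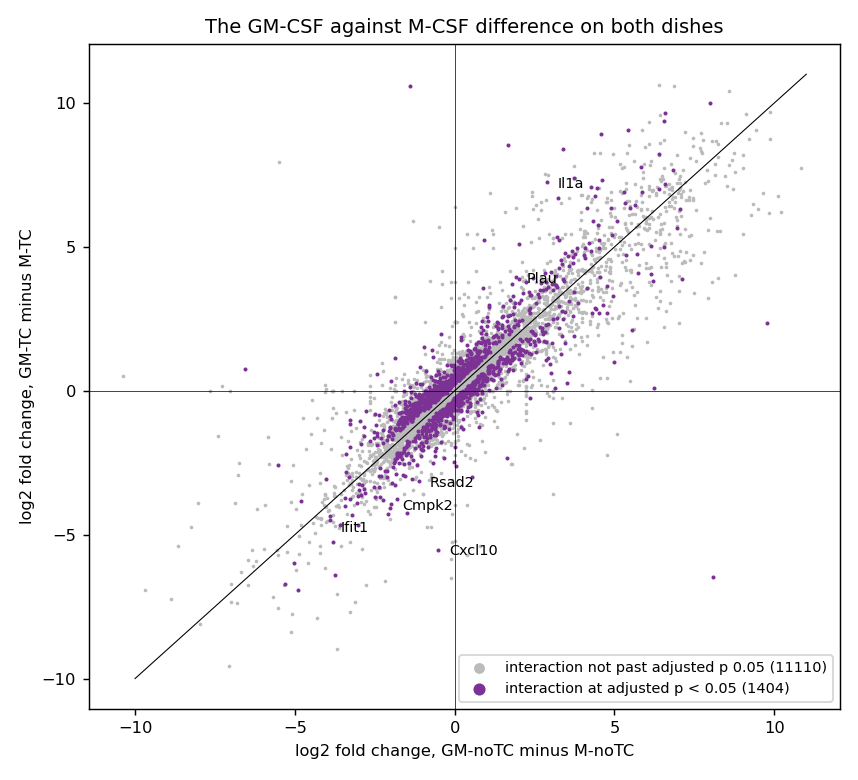
Log2 fold change of the GM-CSF over the M-CSF group on noTC dishes (x axis) and on TC dishes (y axis) for each tested gene, with the 1404 genes whose difference depended on the dish in purple and the others in grey. Most genes lie along the diagonal, and genes with the largest values on TC dishes lie closer to 0 on noTC dishes. Picking genes by their value on TC dishes favours this pattern.

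Upon LPS challenge on TC dishes, 1866 genes were higher in GM-TC-LPS (14.9%) and 1258 higher in M-TC-LPS (10.1%). Of the DEGs higher in GM-TC 1141 (68.9%) were shared, or 61.1% of those with LPS, and 31 were called in the opposite direction. Of the DEGs higher in M-TC 675 (63.1%) were shared, or 53.7% of those with LPS, and 11 were called in the opposite direction. The difference depended on LPS for 5145 genes (41.1%), 1133 of them DEGs at steady state, and whether the libraries with LPS hold excess reads like those of the noTC libraries was not tested. MHC class II genes had log2 fold changes with a median of 2.62 without and 2.65 with LPS, and 1 of 11 depended on LPS. ISGs depended on LPS in 43 of 48 cases, and their median was -0.97 with LPS. Ifit1 had 3749 ± 41.7 CPM in GM-TC-LPS and 4402 ± 131 CPM in M-TC-LPS (mean ± SD, n = 2). Its difference thus narrowed from -4.27 to -0.23 on the log2 scale (adjusted p of the dependence = 6.47e-19). Targets of STAT5 and suppressors of cytokine signalling went from a median of 2.43 to -0.45, with 11 of 13 depending on LPS. Klf4 was at 78.7 and 74.2 against 13.6 and 14 CPM at steady state and reversed with LPS, from 2.47 to -1.60 on the log2 scale (adjusted p of the dependence = 2.29e-16). Ccl6 and Clec4n differed by 5.88 and 6.14 on the log2 scale with LPS (adjusted p of the dependence = 0.0896 and 0.334).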

How the data were processed

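RNA-seq was made from whole cultures with an oligo(dT) and non-directional library kit, so reads of a gene and of an overlapping antisense gene cannot be told apart. The authors trimmed, aligned and counted the reads, with fastp 0.18.0, Bowtie2 2.2.8, HISAT2, StringTie 1.3.1, RSEM, DESeq2 and edgeR named in their processing notes, and deposited 1 table of RSEM expected counts per gene for 16 libraries, with Ensembl identifiers and symbols. The genome build and annotation are not given in the sources used here.

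Expected counts were rounded to whole numbers. Of 22287 genes 16756 had a count and 12514 passed filterByExpr. edgeR 4.0.16 (R 4.3.3) was fitted to all 16 libraries with 8 groups, TMM factors, the quasi-likelihood test and BH adjustment, and SEs were taken from the F statistic. The difference between the growth factors was also tested for its dependence on the dish and on LPS as contrasts of the same fit. DESeq2 1.42.0 served as an alternative. Libraries held 17527802 to 22400457 counts, and 3 counts, used as the floor, equal 0.112 to 0.151 TMM-scaled CPM. Where a group had no count, the fold change was bounded with 3 counts per library, and where it had 1 to 3 counts the ratio is given with a 95% interval, which covers counting error only. In simulated data over 12514 genes, GM-TC and M-TC shared 1 mean per gene and kept their library sizes, and a small set of genes was changed, evenly in both directions. Of 67 genes changed 3-fold 66 were called, and 2 of 12314 unchanged genes were called. Of 67 changed 1.5-fold 58 passed the adjusted p, but 1 was called since the true change lies under the fold limit. With so few changes the simulation does not test the scaling, on which the balance of directions depended.

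Named genes were the 8 in each direction with the largest fold changes (at 5 CPM or more, no overlap, a proper symbol), the 6 with the largest CPM differences, preset genes of each list and up to 3 DEGs per direction of each list, and the 6 with the smallest adjusted p for dependence on the dish. Cd274, Siglecf, Slc7a2, Ass1, Plaur, Itgb2, Ccnb2 and Cdc20 were named after their values were seen. Some genes that the rule names are not reported here. The lists and the comparison were chosen with earlier results of these data known. The replicates are described as biological in the study, but no label ties a number to an animal or culture day, so p-values measure a spread between libraries. That spread is estimated over all 8 groups, not from the GM-TC and M-TC pairs alone. The GM-TC replicates differed more than the M-TC replicates, so SEs and p-values may be too small for GM-TC. Same-numbered libraries of GM-TC and M-TC did not deviate together (correlation 0.0593 over 9209 genes). For an alternative to the dish comparison, added after seeing the data, each noTC library was reduced by a fixed share of the mean of the other 10. Those 10 were all libraries with LPS and the noTC libraries of the other growth factor. The share was the median excess over the TC libraries of genes under 1 CPM there and with a mean of at least 100 CPM in those 10. Promoter sequences are from RefSeq tables of GRCm38.p6. Alternatives of scaling, filter, test, libraries and fold limit were tried.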

Additional observations from a re-analysis of the deposited data

Results flagged for a closer look

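The difference between GM-CSF and M-CSF cells depended on the dish for 1404 genes in edgeR's test of the interaction. Those with the smallest adjusted p were Cxcl10 (-5.01 on the log2 scale, TC minus noTC), Plau (2.03), Ifit1 (-2.17), Rsad2 (-2.01), Cmpk2 (-1.96) and Il1a (4.36). After a fixed share of the mean of the other 10 libraries (0.675% for GM-noTC and 0.600% for M-noTC) was subtracted from the noTC libraries, a step chosen after seeing the data, Plau stood at 2.02 and Ifit1 at -0.50 and both still passed, while Cxcl10 (-0.71), Rsad2 (-0.185), Cmpk2 (-0.0350) and Il1a (1.60) did not. The other 10 libraries included all those with LPS, so the step cannot tell excess reads from a rise of LPS-induced genes on noTC dishes. Cxcl10 and Il1a may also be among the genes that set the share, and their lost calls would then be partly fixed by the step itself. Among 55 genes of DNA replication and S phase 43 depended on the dish. The difference depended on LPS for 5145 genes.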

How the results depend on the processing

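The 1657 and 1069 DEGs became 1343 and 1689 when library size alone replaced TMM factors, the only one of the alternatives that turned the balance of the directions, 1595 and 1121 with DESeq2's size factors, 1683 and 1088 without a filter on low counts, 1554 and 1082 with DESeq2 on 16 libraries, 1392 and 981 with DESeq2 and 1455 and 1048 with edgeR on 4 libraries, and 2368 and 1863 at a fold change above 1.5. At the study's threshold the 1093 genes higher in M-TC became 1717 with library size only. Leaving out 1 library gave 1580 to 1638 DEGs higher in GM-TC and 1023 to 1137 higher in M-TC, and 1659 to 1686 and 1066 to 1172 at the study's threshold, and among the counts of DEGs in lists it moved by over 1.5 times only those of 0 to 2 genes. The median log2 fold change of 5 of 50 lists changed sign, namely complement (0.125, -0.111 without M-TC replicate 1), heart genes (-0.333, 0.109 without M-TC replicate 1), efferocytosis (-0.066, 0.094 without GM-TC replicate 2), receptors and ligands of GM-CSF and M-CSF (-0.034, 0.013 without GM-TC replicate 2) and NADPH oxidase (0.018, -0.045 to 0.059). The last also turned with DESeq2's size factors and on 16 libraries with DESeq2 (-0.028 in both) and without a filter (-0.002), and library size only turned the medians of the NADPH oxidase, complement, actin, LXR, iron and scavenger receptor lists. With edgeR on 4 libraries the median of the mast cell and basophil genes went from 3.90 to 2.56. Among the fits that left out 1 library, the median of the MS4A family moved the furthest, from -3.28 to -4.49 without GM-TC replicate 1. In these fits the lone library is assumed to vary like the other groups.

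The count of genes that depended on the dish was less stable. It was 896 with DESeq2 on 8 libraries, and leaving out 1 library gave 850 (M-noTC replicate 1) to 2258 (GM-TC replicate 1), with 880 and 927 without GM-noTC replicate 1 and 2 and 897 and 891 without M-TC replicate 1 and 2. The cause was not tested. The count that depended on LPS went from 4443 to 5397 with 1 library left out.

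Whether replicate numbers pair the libraries is not known. With the number as a block 1650 and 1067 DEGs and 1687 and 1089 genes at the study's threshold passed. So did 1388 genes that depended on the dish and 5116 that depended on LPS. The block changed the call of none of 215 named genes.

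Of the genes given without a call, Spi1 became -0.225 and Nos2 -0.10 with library size only, and Tlr4 became -0.293 with library size only, -0.025 with DESeq2's size factors and with DESeq2 on 16 libraries, and 0 without the filter. Leaving out 1 library gave -0.107 to 0.122 for Tlr4 and -0.086 to 0.396 for Nos2. Library size only ended the call of 7 named genes and gave 3 a call, and DESeq2's size factors put Psap under the fold limit (0.979). Depth limits genes near 3 counts per library, such as Csf2, Il6 and Il12b.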
